A study of Drosophila melanogaster with 10 samples.

Results

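The ecdysone receptor EcR, its partner usp and 8 genes of the transcriptional response to ecdysone (Eip74EF, Eip75B, Eip78C, Hr4, Hr39, ftz-f1, Kr-h1 and ImpE1) were followed in RNA-seq of Drosophila melanogaster larval brain. The genes were chosen by symbol, with earlier results of these data known, and each symbol matched 1 of 17895 gene rows in the deposited count table. All 10 passed the filter on low counts, along with 10749 genes in all. Whole brains were taken at the third larval instar, and total RNA was sequenced in 4 libraries labelled vostok and 4 control libraries whose names begin with yw. Per the series title, vostok is the gene CG11504, and the design text describes the samples as mutant. The allele, the genetic background of the mutant, the age within the instar and the sex of the larvae were not given in the sources used here. The 2 vostok Micro-C samples of the series were not analysed here. The labels call the libraries repeats and do not say that they came from separate animals or pools, so the spread between repeats that the p-values rest on may be technical.

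Ecdysone is the steroid hormone that times molting and metamorphosis in insects. Its active form binds a heterodimer of the nuclear receptors EcR and Ultraspiracle (usp), which activates a small set of early regulatory genes, and these in turn act on later genes and on each other. In the larval nervous system, ecdysone signaling through EcR is known for its role in the remodeling of neurons before metamorphosis and in the timing of neural progenitors.

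The libraries held 57613848 to 81796126 estimated counts, and a member was covered by 1116 (Eip78C) to 69405 (Eip75B) counts per library. Levels are CPM, that is, normalised counts with library sizes corrected by TMM factors. They are not divided by transcript length, so they were compared between libraries and not between genes. CG11504 stood at 57.2, 67.2, 56.1 and 59.7 CPM in control libraries 1 to 4 and at 71.4, 72.7, 74.7 and 75.7 CPM in vostok libraries 1 to 4. Its RNA was thus higher in the libraries labelled vostok (log2 fold change 0.29 ± 0.06 SE, adjusted p = 0.0143), a call lost without vostok library 3 (adjusted p = 0.0531). A lowered transcript therefore cannot serve as a check of the labels, and every direction below is between the libraries as labelled. Of all tested genes, 28.3% differed at an adjusted p below 0.05, 12.1% higher and 16.2% lower in vostok. Control library 2 lay nearer to the vostok libraries than the other controls did, at -26.5 on the first principal component against -72.1 to -52.6 for the other controls and 45.9 to 62.2 for vostok. Summed over 12 hemocyte markers, libraries held 3695, 474, 9974 and 3259 CPM in controls 1 to 4 and 256 to 1131 CPM in vostok. None of these markers was at 0 in all libraries, all 12 had negative log2 fold changes (median -2.71) and 3 (PPO1, PPO2 and vkg) passed the test. At an unadjusted p below 0.05 with edgeR 10 of the 12 were lower, and DESeq2 called 10 lower. Summed over 10 neuron markers, controls 1 to 4 held 2442, 5077, 2699 and 4096 CPM and vostok libraries 4458 to 5138 CPM, and 0 of 10 passed the edgeR test (1 higher at an unadjusted p below 0.05, and 1 with DESeq2). Summed over 6 neuroblast markers, controls 1 to 4 held 3368, 7331, 4288 and 7043 CPM and vostok libraries 7558 to 8528 CPM. All 6 had positive log2 fold changes, and edgeR called 1 higher (2 higher at an unadjusted p below 0.05, and 2 with DESeq2).

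Among the 10 ecdysone genes, 4 rose in vostok: the nuclear receptor genes Hr4 and Eip78C, the zinc finger gene Kr-h1 and the ecdysone-inducible gene ImpE1. None fell, and EcR, usp, Eip74EF, Eip75B, Hr39 and ftz-f1 did not pass the test. With edgeR, 0 of 10 were lower at an unadjusted p below 0.05 and 5 were higher, and DESeq2 called 0 lower and 5 higher. DESeq2 called 18.8% of all genes higher, and the share of all genes at that unadjusted p was not counted. The log2 fold change was above 0 in 9 of 10, with a median of 0.30 against -0.01 over all tested genes. The count of 4 higher in 10 stands beside 12.1% of all tested genes called higher. The levels of the 4 control and the 4 vostok libraries did not overlap for 5 members, all higher in vostok (usp, Hr4, Hr39, Kr-h1 and ImpE1), beside 33.2% of all tested genes with separate levels in either direction and 16.4% with vostok higher. RNA from whole brains does not allow fewer cells of a type to be told apart from less RNA per cell.

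**Figure D1:**
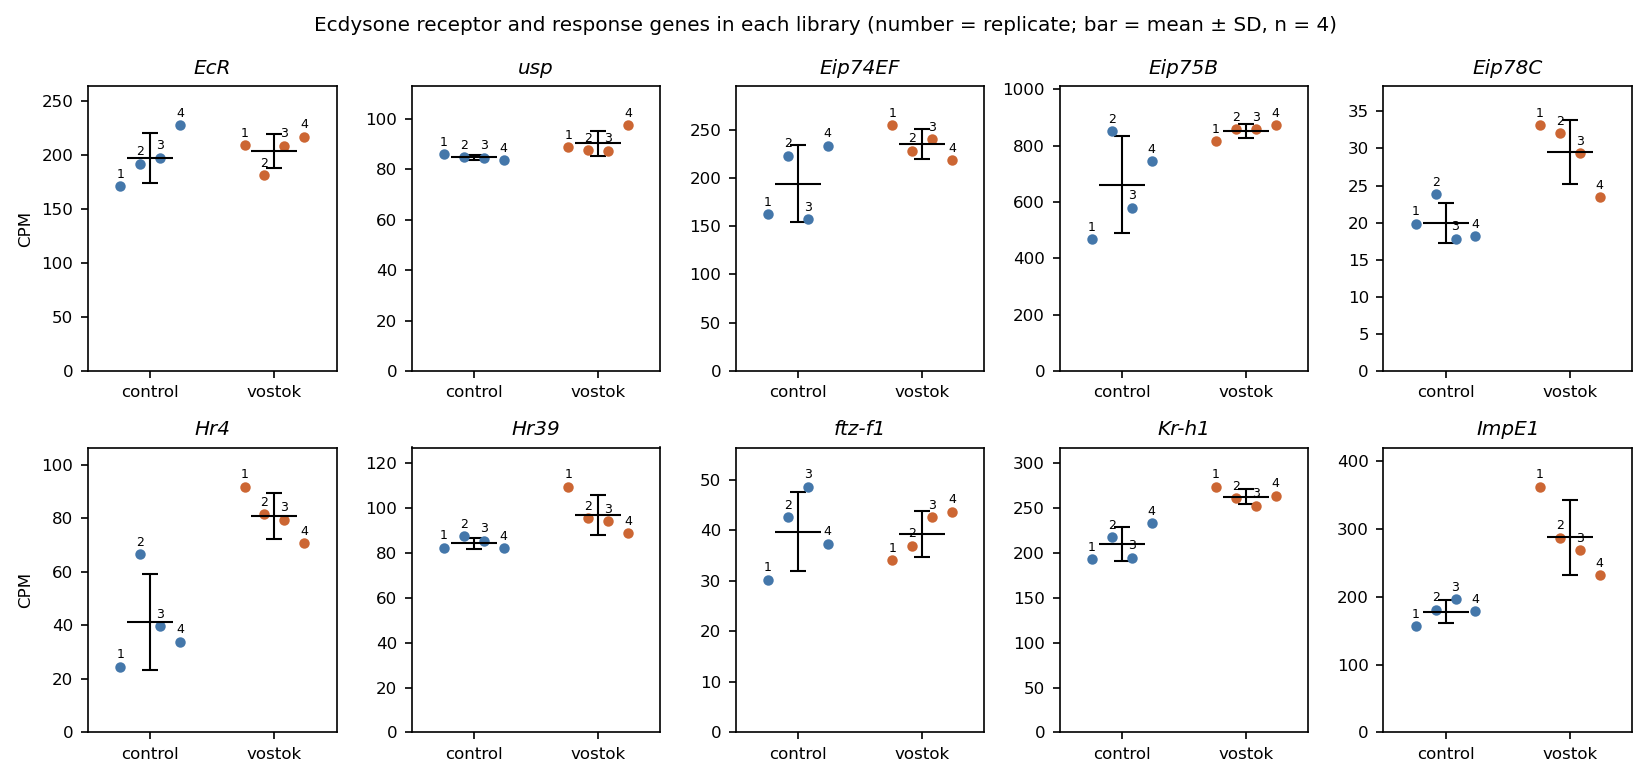
Level of each of the 10 genes in 4 control and 4 vostok libraries (CPM, 1 panel a gene with its own axis from 0); points are libraries numbered by replicate and bars are group means with SD. Hr4 and Eip75B show wide control spreads (24.6 to 66.6 and 467 to 852 CPM), while the vostok libraries of EcR lie within the range of its controls.

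The receptor itself was examined first. EcR (FBgn0000546, 2R:6087873-6169087 in Release 6), the hormone-binding subunit, was at 171, 192, 197 and 227 CPM in control libraries 1 to 4 and at 209, 181, 208 and 217 CPM in vostok libraries 1 to 4. The vostok libraries lay inside the range of the controls. The group means were 197 ± 23.2 and 204 ± 15.6 CPM (SD, n = 4 each), a log2 fold change of 0.05 ± 0.10 (adjusted p = 0.702). Leaving out each library in turn moved the log2 fold change between -0.02 and 0.13, and the adjusted p stayed between 0.257 and 0.904. Estimated counts per gene do not separate the EcR isoforms.

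The other subunit gene, usp (FBgn0003964, X:2038798-2042311), an ortholog of the vertebrate retinoid X receptors, was at 86.0, 84.7, 84.7 and 83.6 CPM in controls 1 to 4 and at 88.7, 87.6, 87.4 and 97.5 CPM in vostok 1 to 4. Each vostok library lay above each control library, with vostok 4 apart from the other three. The means were 84.7 ± 0.992 and 90.3 ± 4.84 CPM, a log2 fold change of 0.09 ± 0.05 that did not pass the test (adjusted p = 0.17; 0.168 to 0.279 over the fits with 1 library left out). The span of usp overlaps those of Actn and CG4313 in the RefSeq annotation. Actn was at 286 and 305 CPM in control and vostok (adjusted p = 0.377), and CG4313 was at 9.07 and 11.5 CPM (adjusted p = 0.0131). The directional kit marks strand, but no source used here says whether the counting used it, so a share of reads between these genes cannot be told apart.

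The span of EcR overlaps those of 15 other genes in the annotation, 13 of them tRNA genes listed at 0 in all libraries. The long noncoding RNA lncRNA:CR43904, chosen here after its values were seen, was at 0, 0.0124, 0.0480 and 0 CPM in controls 1 to 4 and at 0.799, 0.755, 0.708 and 0.657 CPM in vostok 1 to 4 (adjusted p = 0.000952). The control values amount to at most 3 counts per library, a floor of 0.0371 to 0.0519 CPM that covers counting error only, and all vostok libraries stood above it. CG14589, which also overlaps the span, was at 0.176 and 0.398 CPM in control and vostok (adjusted p = 0.0103).

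The early genes are the direct targets by which the pathway was first described, as puffs on salivary gland chromosomes. Eip74EF (FBgn0000567, 3L:17558672-17619325), which encodes an ETS-domain transcription factor, was at 162, 223, 157 and 233 CPM in controls 1 to 4 and at 254, 228, 240 and 218 CPM in vostok 1 to 4. Controls 1 and 3 were low and controls 2 and 4 lay within the vostok range. The means were 194 ± 39.8 and 235 ± 15.6 CPM, a log2 fold change of 0.28 ± 0.14 (adjusted p = 0.156; 0.0789 to 0.319 with 1 library left out).

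Eip75B (FBgn0000568, 3L:17950953-18064696) encodes a heme-binding nuclear receptor related to vertebrate REV-ERB. It was at 467, 852, 580 and 746 CPM in controls 1 to 4 and at 816, 859, 858 and 872 CPM in vostok 1 to 4. The control libraries differed among themselves by 1.82-fold and the vostok libraries by 1.07-fold, and control 2 reached the vostok range. Its order among the controls (1, 3, 4, 2 from low to high) was that of the neuron marker sum. This order was seen after the fact and is not particular to Eip75B. For example, hdc was at 1571, 2981, 1770 and 2448 CPM in controls 1 to 4. How many genes share the order was not counted. With means of 661 ± 171 and 852 ± 24.4 CPM, the log2 fold change of 0.36 ± 0.17 did not pass the test (adjusted p = 0.135). Without control 2 it did (0.51, adjusted p = 0.0236).

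Eip78C (FBgn0004865, 3L:21226609-21266503), another nuclear receptor gene of the REV-ERB type, was at 19.9, 23.8, 17.9 and 18.2 CPM in controls 1 to 4 and at 33.1, 32.0, 29.4 and 23.5 CPM in vostok 1 to 4. The groups met at control 2 and vostok 4, and the other three vostok libraries stood above all controls. Eip78C rose from 19.9 ± 2.74 to 29.5 ± 4.32 CPM, which is 1.48-fold (log2 fold change 0.57 ± 0.13, adjusted p = 0.0191). The call was lost without control 3, vostok 2 or vostok 3, with the highest adjusted p at 0.0578 without vostok 2, while the log2 fold change stayed between 0.52 and 0.67.

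Hr4 (FBgn0264562, X:1941940-2007956) is a nuclear receptor gene of the early-late class, known in the prothoracic gland for its part in the timing of steroid production. Its level was 24.6, 66.6, 39.6 and 33.9 CPM in controls 1 to 4 and 91.8, 81.5, 79.5 and 70.7 CPM in vostok 1 to 4. The groups did not overlap, although control 2 came within a few CPM of vostok 4, and the control libraries spanned 2.71-fold against 1.30-fold in vostok. Hr4 rose from 41.2 ± 18.0 to 80.8 ± 8.67 CPM, the largest fold change of the 10 genes at 1.96-fold (log2 fold change 0.97 ± 0.28, adjusted p = 0.0362). Of the 8 fits that leave out 1 library, only that without control 2 kept the call (1.30, adjusted p = 0.00152); the other 7 lost it, with the highest adjusted p at 0.0867 without control 3.

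Hr39 (FBgn0261239, 2L:21237250-21259675) encodes a nuclear receptor of the same subfamily as ftz-f1. It was at 82.3, 87.3, 85.4 and 82.2 CPM in controls 1 to 4 and at 109, 95.4, 94.0 and 88.6 CPM in vostok 1 to 4. The groups were separate by a small margin, between control 2 and vostok 4. The means of 84.3 ± 2.51 and 96.9 ± 8.87 CPM gave a log2 fold change of 0.20 ± 0.07 just outside the threshold (adjusted p = 0.0592). Hr39 passed with DESeq2 (adjusted p = 0.0169), with RLE factors (0.0494) or upper quartile factors (0.0441), and without control 2 (0.0489) or vostok 4 (0.0429).

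The gene ftz-f1 (FBgn0001078, 3L:18750607-18801309) encodes the nuclear receptor that gives tissues competence to respond to the prepupal ecdysone pulse. Controls 1 to 4 were at 30.2, 42.6, 48.6 and 37.3 CPM and vostok 1 to 4 at 34.1, 36.9, 42.5 and 43.7 CPM. The vostok libraries lay inside the control range. The means were 39.7 ± 7.81 and 39.3 ± 4.57 CPM (log2 fold change -0.01 ± 0.15, adjusted p = 0.952), and with 1 library left out the log2 fold change lay between -0.13 and 0.10.

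Kr-h1 (FBgn0266450, 2L:6082603-6096498) encodes a zinc finger transcription factor that is induced by juvenile hormone as well as by ecdysone and acts in neurons on axon morphogenesis. It was at 193, 218, 195 and 233 CPM in controls 1 to 4 and at 274, 261, 253 and 264 CPM in vostok 1 to 4. All vostok libraries were above all controls. Kr-h1 rose from 210 ± 19.3 to 263 ± 8.68 CPM, which is 1.25-fold (log2 fold change 0.32 ± 0.07, adjusted p = 0.0167), and it passed in all 8 fits with 1 library left out (adjusted p = 0.0118 to 0.0467). CG45075, the annotated gene whose span overlaps that of Kr-h1, was at 5.23, 4.94, 0 and 0 CPM in controls and at 8.86, 10.1, 9.82 and 7.01 CPM in vostok (adjusted p = 0.326). Whether the 2 genes share reads was not tested.

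ImpE1 (FBgn0001253, 3L:8372405-8391171), an ecdysone-inducible gene first isolated from imaginal discs, encodes a protein with similarity to the low-density lipoprotein receptor. Controls 1 to 4 were at 157, 181, 196 and 179 CPM and vostok 1 to 4 at 362, 287, 269 and 232 CPM. The lowest vostok library stood well above the highest control. ImpE1 rose from 178 ± 16.2 to 287 ± 54.8 CPM, which is 1.61-fold (log2 fold change 0.69 ± 0.14, adjusted p = 0.0101). The smallest adjusted p of the 10 was here, and the call held in all 8 fits with 1 library left out (adjusted p = 0.00741 to 0.0304, log2 fold change 0.57 to 0.79). Its libraries were spread more widely in vostok than in the controls. The summed level of 8 imaginal disc markers was 1075 to 1250 CPM in controls and 1140 to 1252 CPM in vostok.

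**Figure D2:**
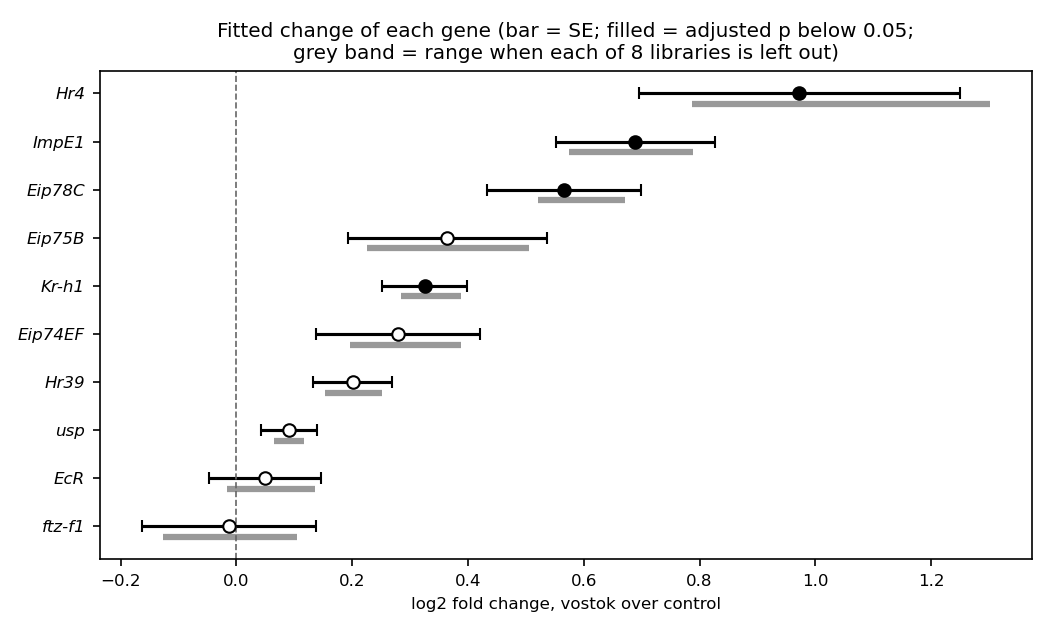
Log2 fold change of vostok over control for each of the 10 genes from the edgeR fit over all tested genes, with bars for the SE, filled points for an adjusted p below 0.05 and grey bands for the range when each of 8 libraries is left out. Hr4 lies highest at 0.97, ftz-f1 is at -0.01, and the bands of EcR and ftz-f1 cross 0.

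Leaving out single libraries moved the number of members called between 2 and 6, and limma voom called 4. Without control 2, the control nearest to vostok, 6 members passed, with Eip75B and Hr39 added, beside 23% of all tested genes called higher in that fit. Without control 3, vostok 2 or vostok 3 only Kr-h1 and ImpE1 remained, beside 8.37%, 7.21% and 7.16% of genes called higher. With controls 1 and 3 both left out, which were the controls lowest in neuron markers and highest in hemocyte markers, the same 2 passed, beside 7.94% of genes called higher. The log2 fold change of Eip75B was then 0.09 and that of Eip74EF 0.04, against 0.36 and 0.28 with all libraries, while Hr4 was at 0.68 (adjusted p = 0.165), Eip78C at 0.49 (0.114), Kr-h1 at 0.22 (0.0364) and ImpE1 at 0.67 (0.0486). DESeq2 called 5 members higher, beside 18.8% of all genes.

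**Figure D3:**
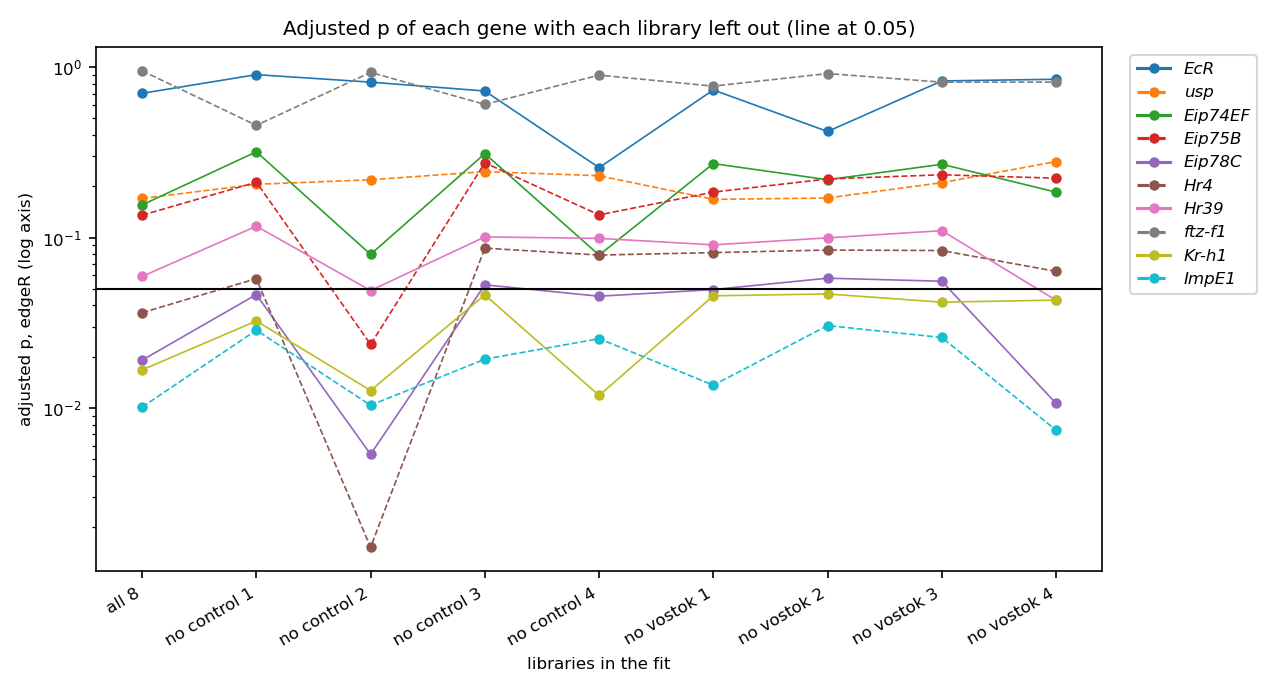
Adjusted p of each of the 10 genes from the edgeR fit (log axis) with all 8 libraries and with each library left out in turn; the horizontal line is the threshold of 0.05, and the lines only join the points of 1 gene, since libraries have no order. Kr-h1 and ImpE1 lie below the threshold throughout, and Hr4 lies below it with all libraries and without control 2, at 0.0362 and 0.00152.

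The summed hemocyte, neuron and neuroblast markers varied widely among the controls. The hemocyte and the neuron marker means were added to the fit in turn, and no fit used the neuroblast markers. With the mean of the hemocyte markers as a term, ImpE1 alone passed (log2 fold change 0.86, adjusted p = 0.0157), beside 5.42% of genes called higher. Kr-h1 then stood at 0.28 (adjusted p = 0.155), Eip78C at 0.54 (0.129) and Hr4 at 0.74 (0.241). Eip75B stood at 0.12 and Eip74EF at 0.17, against 0.36 and 0.28 without the term. With the mean of the neuron markers as a term, Kr-h1 (0.23, adjusted p = 0.0492) and ImpE1 (0.70, adjusted p = 0.0369) passed, beside 8.91% of genes called higher. Hr4 at 0.64 (adjusted p = 0.156) and Eip78C at 0.50 (0.077) lost their calls, and Eip75B and Eip74EF both stood at 0.06. Both terms overlap with genotype, so part of a difference between the groups can be taken up by them.

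No single library was the lowest or the highest of its group for all 10 genes. Control 1 was the lowest control for 6 of them, control 3 for 2 and control 4 for 2, and control 2 was the highest for 4. Among the vostok libraries, library 1 was the highest for 6 genes and library 4 for 4. Library 4 was also the lowest vostok library for 5 genes, libraries 1 and 3 for 2 each and library 2 for 1. The share of all tested genes with each library at an extreme was not counted, so these counts are not particular to the members. Eip78C, Hr4, Hr39 and ImpE1 shared 1 order within vostok, decreasing from library 1 through library 4. On the first principal component over all tested genes, vostok libraries 1 to 4 also stood in order, at 45.9, 53.5, 61.5 and 62.2. The order of the 4 members was seen after the fact, and how many tested genes share it was not counted. The cause of this shared order was not tested. The median SD of log2 CPM over the members was 0.18 in controls and 0.12 in vostok, against 0.20 and 0.10 over all tested genes. The SD was larger in controls for 6 of 10 members, beside 77.0% of all tested genes.

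**Figure D4:**
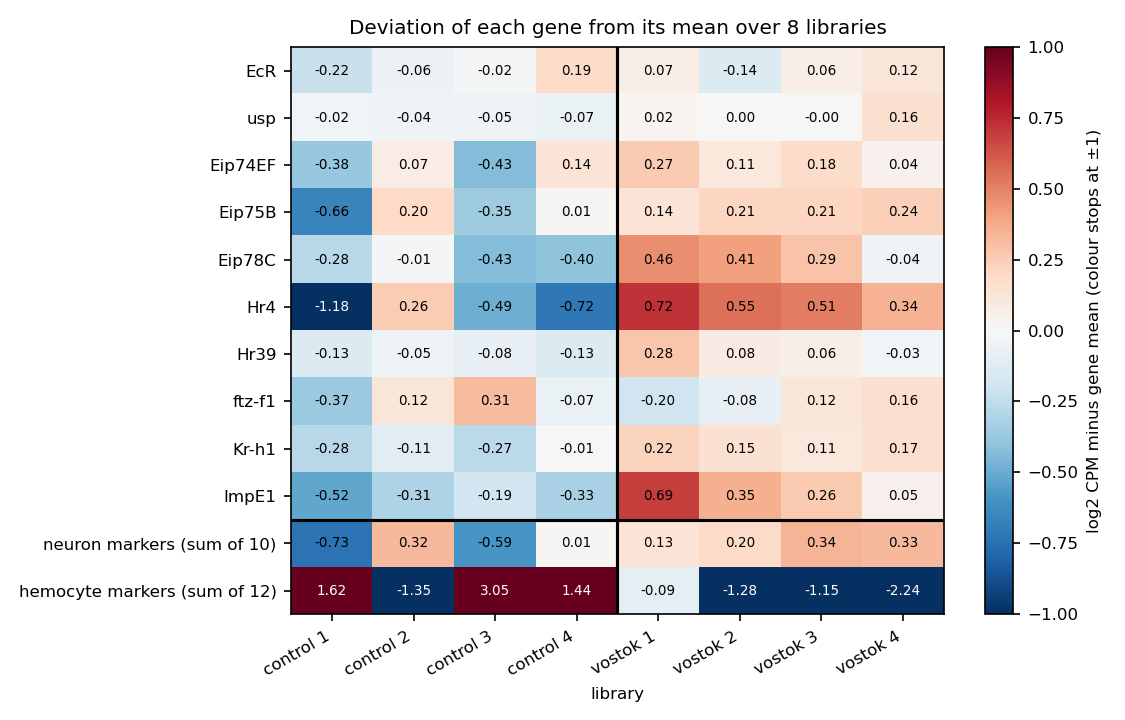
Log2 CPM of each of the 10 genes, and of the summed neuron and hemocyte markers, in each of 8 libraries as the difference from the mean over all libraries (blue below, red above, color stopping at 1). Hr4 has the largest difference of the genes, in control 1, and the rows of EcR and ftz-f1 hold both signs in both groups.

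Genes whose levels followed those of the receptor subunits were found by the root mean square difference of mean-centered log2 CPM over the 8 libraries. Nearest to EcR were Nipped-A at 0.0587, CG7099 at 0.0588 and E2f1 at 0.0588, against a median of 0.259 over all tested genes. Nearest to usp were Taf2 at 0.0212, esg at 0.0254 and CG3918 at 0.0270, against a median of 0.233. Within the members, the nearest to EcR was usp at 0.128 and the nearest to usp was Hr39 at 0.126. Eip74EF and Kr-h1 were 0.121 apart, Eip75B and Eip74EF 0.151, and Eip78C and ImpE1 0.183. Hr4 was the most isolated, with ImpE1 as its nearest member at 0.385. A gene of nearly constant level lies close to many others on this measure.

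Other nuclear receptor genes moved in both directions. Of 14, 13 were tested, with 4 higher, 4 lower and a median log2 fold change of 0.09. The share called was 61.5%, beside 28.3% of all tested genes. The orphan receptor gene tll, which acts in brain patterning and neural progenitors, rose from 42.9 ± 5.49 to 65.6 ± 3.35 CPM (0.61 ± 0.09, adjusted p = 0.00302) and passed in all 8 fits with 1 library left out. ERR, a regulator of carbohydrate metabolism in larvae, rose from 29.0 ± 2.08 to 34.0 ± 0.634 CPM (adjusted p = 0.027), and Hr51, which acts in mushroom body remodeling, from 7.23 ± 1.75 to 11.1 ± 1.18 CPM (adjusted p = 0.0351). Hr96, a receptor of xenobiotic and cholesterol responses, fell from 23.4 ± 0.826 to 20.5 ± 0.770 CPM (adjusted p = 0.0286), and Hr78 fell from 73.6 ± 9.11 to 59.3 ± 2.15 CPM (adjusted p = 0.0337). The calls of ERR, Hr51, Hr96 and Hr78 each held in only 2 of the 8 fits with 1 library left out. With the hemocyte or the neuron mean as a term, 1 of the list was called higher and 0 lower. The remaining calls, Hr38 higher and Hnf4 and knrl lower, are named here after their values were seen. Hr3, an early-late gene that acts upstream of ftz-f1, was at 13.4 ± 6.59 and 19.4 ± 1.53 CPM (adjusted p = 0.189, but 0.00218 without control 2), and svp was at 50.6 ± 5.37 and 53.7 ± 2.99 CPM (adjusted p = 0.43).

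Further ecdysone cascade and timing genes were likewise split. Of 22 symbols 18 had a row under that name and were tested, with 3 higher, 3 lower and a median log2 fold change of 0.15. At 33.3%, the share called was near the 28.3% of all tested genes. Sox14, an EcR target needed for dendrite and axon pruning, rose from 74.4 ± 15.0 to 110 ± 13.6 CPM (0.56 ± 0.15, adjusted p = 0.0274), and Eip63E, a cyclin-dependent kinase gene, from 117 ± 8.73 to 137 ± 4.49 CPM (adjusted p = 0.0328). Oatp74D, the importer that brings ecdysone into cells, fell from 149 ± 36.1 to 93.5 ± 11.3 CPM (-0.67 ± 0.18, adjusted p = 0.0301), and ImpL2, a secreted antagonist of insulin signaling, fell from 109 ± 25.5 to 69.2 ± 7.22 CPM (-0.66 ± 0.18, adjusted p = 0.0297). With 1 library left out, Eip63E and Oatp74D passed in 3 of 8 fits and Sox14 and ImpL2 in 2. E23, a transporter gene of the ABC family that rose, and ImpE3, which fell, are named after their values were seen. Their values were 13.5 ± 1.14 against 18.5 ± 3.56 CPM (adjusted p = 0.0426) and 23.9 ± 6.49 against 11.5 ± 5.02 CPM (adjusted p = 0.0453), and each passed in 2 of the 8 fits. With the hemocyte or the neuron mean as a term, none of the list was called by edgeR. ImpE1 and ImpE3, isolated in the same way as ecdysone-inducible, were called in opposite directions. ImpE2, also named after its values were seen, was at 355 ± 133 and 148 ± 100 CPM and did not pass (-1.26 ± 0.51, adjusted p = 0.0946). The Broad-Complex gene br, the early gene of the metamorphic transition, did not pass (1467 ± 159 and 1601 ± 121 CPM, adjusted p = 0.322), nor did the zinc finger gene crol (725 ± 61.7 and 813 ± 43.4 CPM, adjusted p = 0.134).

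**Figure D5:**
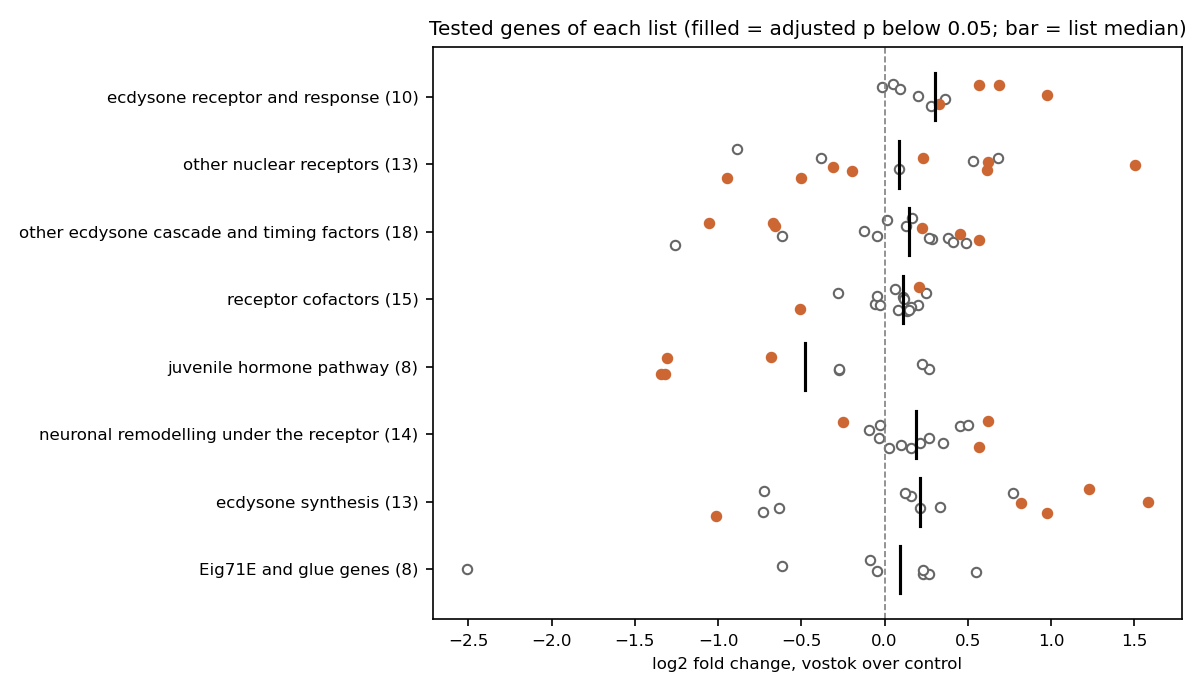
Log2 fold change of vostok over control for each tested gene of the 10 members and of 7 lists of related genes, with the number tested in parentheses, filled points for an adjusted p below 0.05 and a vertical bar for each median. Called genes lie on both sides of 0 in the nuclear receptor and cascade lists and on the lower side in the juvenile hormone list.

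Receptor cofactor genes mostly did not pass. Of 17 symbols 15 were tested, with 1 higher, 1 lower and a median of 0.11. This is 13.3% called, beside 28.3% of all tested genes. The gene rig, which encodes a WD-repeat protein that binds nuclear receptors, fell from 118 ± 2.99 to 83.0 ± 5.52 CPM (-0.51 ± 0.06, adjusted p = 0.000717), the smallest adjusted p of the list, and passed in all 8 fits with 1 library left out. Iswi, the ATPase of nucleosome remodelers that include an EcR coactivator complex, rose from 329 ± 11.1 to 379 ± 10.2 CPM (adjusted p = 0.0231) and passed in 3 of the 8. The chaperone gene Hsp83 (adjusted p = 0.808) and the acetyltransferase gene nej (adjusted p = 0.608) did not pass.

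Juvenile hormone opposes the metamorphic action of ecdysone. In its pathway list 8 of 10 genes were tested, with 4 lower and a median of -0.48, and with edgeR 0 were higher (0 higher and 5 lower at an unadjusted p below 0.05, and the same counts with DESeq2). The lower calls made up 50.0% of the tested list, beside 16.2% of all tested genes called lower. The epoxide hydrolase genes Jheh1, Jheh2 and Jheh3, which break the hormone down, all fell. Jheh3 went from 7.70 ± 1.5 to 3.08 ± 0.392 CPM (-1.32 ± 0.17, adjusted p = 0.00138) and passed in all 8 fits with 1 library left out, whereas Jheh1 (adjusted p = 0.0309) passed in 2 and Jheh2 (adjusted p = 0.039) in 1. These 3 genes are close relatives, and the division of shared reads among them is uncertain. Chd64, a calponin-family protein gene, fell from 141 ± 70.2 to 55.7 ± 8.09 CPM (-1.34, adjusted p = 0.0303), passing in 2 of the 8. The receptor gene gce (adjusted p = 0.298) and Fkbp39 (adjusted p = 0.068) did not pass. With the hemocyte mean as a term 1 gene of the list was called lower.

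Genes of neuronal remodeling linked to EcR gave 2 higher (Sox14 and Hr51) and 1 lower of 14 tested, with a median of 0.19. The list mixes genes that act downstream of EcR with genes, such as Smox, that act upstream of it. Its share called was 21.4%, beside 28.3% of all tested genes. The effector caspase gene Drice fell (log2 fold change -0.25, adjusted p = 0.0329). Each of these 3 calls held in 2 of the 8 fits with 1 library left out. Of those not called, hdc was at 2193 ± 646 and 3106 ± 174 CPM (adjusted p = 0.0831), and Smox, the Smad of the activin pathway that raises EcR in mushroom body neurons, was at 373 ± 45.8 and 449 ± 14.1 CPM (adjusted p = 0.0581).

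Genes that make ecdysone are expressed in the prothoracic gland, part of the ring gland attached to the larval brain. Of 14, 13 passed the filter on low counts and were tested, with 4 higher, 1 lower and a median of 0.21. Calls thus made up 38.5%, beside 28.3% of all tested genes. The Rieske oxygenase gene nvd, which acts on cholesterol, rose from 21.5 ± 7.36 to 64.4 ± 15.0 CPM (1.58 ± 0.30, adjusted p = 0.00821), and the sterol transport gene Npc1a rose from 216 ± 35.4 to 381 ± 96.0 CPM (0.82 ± 0.19, adjusted p = 0.0187). Both passed in all 8 fits with 1 library left out. The PTTH receptor gene tor rose from 2.66 ± 0.845 to 6.21 ± 2.25 CPM (adjusted p = 0.0252), and the P450 gene dib, named after its value was seen, also rose (0.98, adjusted p = 0.0397). The P450 gene shd, which makes the active hormone in peripheral tissues, fell from 1.83 ± 0.402 to 0.901 ± 0.179 CPM (adjusted p = 0.0175). With 1 library left out, tor passed in 4 of 8 fits, dib in 3 and shd in 6. The hydroxylase gene phm, at 228 ± 82.6 and 390 ± 125 CPM (adjusted p = 0.117), and spok, at 153 ± 52.9 and 171 ± 44.3 CPM (adjusted p = 0.698), did not pass. The amount of ring gland carried with each brain was not recorded, and its part in the values of Hr4 and of these genes was not tested.

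The Eig71E genes and the salivary glue genes, classical late and intermolt targets in the salivary gland, were at low level. Of 21, 8 passed the filter, and edgeR called 0 (0 at an unadjusted p below 0.05, and 0 with DESeq2). Over all tested genes, edgeR called 28.3%. Sgs3 was at 3.85 ± 3.57 and 4.51 ± 3.71 CPM (adjusted p = 0.81), and Sgs5 at 1.01 ± 1.07 and 1.19 ± 0.926 CPM (adjusted p = 0.82).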

How the data were processed

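Total RNA of whole larval brains was taken up in Trizol and made into libraries with a directional kit, per the labels' protocols. The authors deposited a gene table of estimated counts that were not scaled to each other, and its name gives salmon as the quantifier. Per the submitters' processing notes, BWA and dm6 belong to the processing, with no assay stated. No source used here gives the salmon version, the annotation release or the strand setting. Salmon divides reads among similar sequences, which can move counts between overlapping or related genes.

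Of 24278 rows, the 17895 gene rows held 99.3% to 99.5% of counts, and element and other rows stayed out of library sizes and tests. Counts were rounded, filtered with filterByExpr at its defaults, scaled by TMM and tested with the robust quasi-likelihood F test of edgeR 4.0.16 under R 4.3.3; genotype was the only term. Benjamini-Hochberg adjustment ran over all 10749 tested genes, with a threshold of 0.05. The SE is the log2 fold change divided by the square root of F. Tests were checked on simulated counts, where 43.3% of genes changed 1.5-fold were recovered, 79.1% at 2-fold and 95.5% at 4-fold. Of the calls made there, 2.03% were false. Each gene was drawn independently around its control mean, without the variation that genes share within a library. Only 67, 67 and 66 genes were changed at these folds, whereas 28.3% of all tested genes were called in the data. The recovered and false shares are therefore not error rates for these libraries. Changes below 1.5-fold were not simulated. Alternatives used DESeq2 1.42.0, limma 3.58.1 (voom, with and without quality weights), other scaling factors and filters (none, or 5 CPM in 4 libraries), glmTreat against 1.2-fold, a replicate block, marker means as terms and libraries left out. Nearest patterns used log2 of CPM plus 0.01. Positions and overlaps were read from RefSeq's gene table for Release 6, which is dm6.

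The members and gene lists were chosen with earlier results of these data known. Named genes are all 10 members, CG11504 and, in each list, up to 4 called genes with the smallest p and up to 2 uncalled genes with the highest mean CPM, with exceptions stated where they occur. Let-7-C, Eip55E, Eip71CD, ImpL3, Alien and CSN2 had no row under those names.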

Additional observations from a re-analysis of the deposited data

Results flagged for a closer look

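In groups of 4 libraries, a library was looked at again where its gap to the nearest other library, divided by the range of the group, was above Dixon's critical value. Of 88 groups checked over the named genes 8 were past that value, where chance gives about 1 in 20, and of the 20 groups of the 10 ecdysone genes 1 was. That one was usp, where vostok 4 was the highest of its group at 97.5 CPM against a group median of 88.1 CPM, a ratio of 0.867. Hr3 was highest in vostok 1 (21.7 CPM, median 18.7 CPM, ratio 0.873). Sox14 was highest in control 2 among the controls (96.8 CPM, median 67.7 CPM, ratio 0.887). The gene br was lowest in control 1 (1231 CPM, median 1532 CPM, ratio 0.831). The ecdysone synthesis gene phm was lowest in control 2 (106 CPM, median 262 CPM, ratio 0.830). The glue genes Sgs3 and Sgs5 were highest in control 4 among the controls (9.20 CPM against a median of 2.20 CPM, ratio 0.936, and 2.62 CPM against 0.515 CPM, ratio 0.939). Sgs5 was also highest in vostok 3 (2.57 CPM, median 0.769 CPM, ratio 0.874). No cause was tested for any of these.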

How the results depend on the processing

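No member was called lower under any of the 22 alternatives run, and none of the named genes had a called value reversed. EcR, usp, Eip74EF and ftz-f1 were not called under any of the 22; ImpE1 lost its call under 1 (adjusted p below 0.01), Kr-h1 under 4, Eip78C under 8 and Hr4 under 13, while Eip75B gained one under 1 and Hr39 under 5. Against 4 members called, there were 1 with glmTreat, 1 with the hemocyte mean, 2 with the neuron mean, 2 with the replicate block, 2 without controls 1 and 3, 0 at an adjusted p below 0.01 (DESeq2 gave 5 at the 0.05 threshold, and 5 had an unadjusted p below 0.05 with edgeR), and 2 to 6 with 1 library left out. Of all tested genes, glmTreat called 6.99% higher, the hemocyte mean 5.42% and the neuron mean 8.91%. The share higher was 7.48% with the block, 7.94% without controls 1 and 3 and 5.60% at an adjusted p below 0.01. The fits with the neuron mean and without controls 1 and 3 were chosen after seeing the data.

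Against 3040 genes differing (1299 higher, 1741 lower), the stricter filter gave 1668 (615 higher, 1053 lower), glmTreat 1385 (751, 634), the hemocyte mean 948 (583, 365), the replicate block 1564 (804, 760), and an adjusted p below 0.01 gave 1057 (602, 455). The neuron mean gave 1802 (844 lower) and the fit without controls 1 and 3 gave 1593 (701 lower). DESeq2 called 2010 higher and voom with quality weights 1969. With 1 library left out, 1521 to 5333 differed (779 to 2523 higher, 736 to 2810 lower), with the highest count without control 2.

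Replicate numbers are not said to mark a shared batch. The deviations of same-numbered libraries from their group means had correlations of -0.145 to 0.272. Differently numbered libraries had correlations of -0.560 to 0.462, so the numbers were not taken as pairs. With the replicate block, 2 members passed (Eip78C and ImpE1) and Kr-h1 had an adjusted p of 0.0557.

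For the lists, counts are given as higher and lower. Other nuclear receptors (4 and 4) gave 1 and 0 with glmTreat, either marker mean, the block, controls 1 and 3 out, or an adjusted p below 0.01; lower calls were 2 with the stricter filter or voom and 0 with no scaling factors, and with 1 library left out counts were 1 to 6 and 0 to 5. The cascade list (3 and 3) gave 0 and 0 under the same settings except 1 and 1 with the block, and 0 to 6 and 0 to 4 with 1 library left out. Cofactors (1 and 1) gave 0 higher under those settings and with no filter, 2 lower with DESeq2 or quality weights, and 0 to 2 and 1 to 2 with 1 library left out. The juvenile hormone list (0 and 4) gave 1 higher with no filter, 2 lower with the stricter filter or the block, 1 lower under the other settings named, and 1 to 5 lower with 1 library left out. Remodeling genes (2 and 1) gave 6 higher with DESeq2 or quality weights, 1 and 0 with the block, 0 lower with no scaling factors, 0 and 0 under the other settings named, and 0 to 7 and 0 to 1 with 1 library left out. Synthesis genes (4 and 1) gave 1 higher with the hemocyte mean, the neuron mean or an adjusted p below 0.01, 2 and 2 with quality weights and 0 higher without controls 1 and 3. Their lower count was 0 with the stricter filter, the hemocyte mean, the block or an adjusted p below 0.01, and counts were 2 to 5 and 0 to 4 with 1 library left out. The cause of these changes was not tested, and some of the settings also leave fewer libraries or genes.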
